A study of Bos taurus with 60 samples.

Results

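Small RNA libraries of the cattle gut wall were searched for 6 miRNAs that are best known from neurons: bta-miR-9-5p, bta-miR-124 (bta-miR-124a=bta-miR-124b, deposited as 1 joint row), bta-miR-129-3p, bta-miR-132, bta-miR-138 and bta-miR-212, written below without the species prefix. The 6 were taken by name from the 608 rows of the count table, a list drawn up with earlier results of these data known. The 60 libraries come from 6 intestinal regions of Bos taurus, and each region holds 5 libraries of super-shedders, animals that excreted large numbers of Escherichia coli O157 in feces, and 5 of non-shedders, animals whose feces were negative for it. In gut order the small intestine gave duodenum, proximal jejunum and distal jejunum, and the large intestine gave cecum, spiral colon and descending colon, which makes 12 groups. Each library carries a letter in its title, F to J for super-shedders and A to E for non-shedders, and the letter was taken as the animal. Per the labels the tissue was snap-frozen biopsies, so the libraries mix mucosa with any muscle and nerve that the biopsies held, and no age, breed or sex is given. Whether the super-shedders differed from the non-shedders in gut miRNAs was the question that the series was built to ask.

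A miRNA is a short RNA that guides Argonaute proteins to messenger RNAs and lowers their output. The gut wall has its own nervous system, with ganglia in the myenteric plexus between the muscle layers and in the submucosal plexus under the mucosa. In mouse and human, miR-124 and miR-9 are hallmarks of the neuronal lineage, where miR-124 represses genes of other cell types and miR-9 acts in neural progenitors and during differentiation. miR-132 and miR-212 are cut from 1 primary transcript, share a seed and are induced by neuronal activity through the transcription factor CREB in rodents. miR-138 limits the size of dendritic spines in rat neurons, and miR-129 is abundant in mammalian brain. miR-132, miR-212 and miR-138 are not restricted to neurons, since each is also known from other cell types, immune cells among them. In the RefSeq gene table (assembly ARS-UCD2.0) MIR132 and MIR212 are direct neighbours, and the 6 miRNAs come from 11 loci in all, with 3 for miR-124 and 2 each for miR-9, miR-129 and miR-138.

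Library depth ran from 535373 to 19346766 counts. Levels are given as CPM, counts scaled to a common library size by TMM, so that sums within a library have no fixed total. In 13 libraries the marker miRNAs went against the region on the label, by miR-196b on the wrong side of 50 CPM for large or small intestine, miR-192 (an intestinal epithelial miRNA) under 10000 CPM or miR-122 (a liver miRNA) over 1000 CPM. Of these, 10 were super-shedder libraries, namely all 6 of letter I, the distal jejunum, spiral colon and descending colon of letter H and the descending colon of letter G. The other 3 were non-shedder libraries, the proximal and distal jejunum of letter B and the spiral colon of letter C. This rule was set after the data had been seen, and results are given with all libraries and then without these 13 where that matters. Shares of all miRNAs called are those with all libraries, and none is given for the runs without the 13. A call that appears only without the 13 thus has no background here and cannot be read as particular to the 6. Fewer cells of a type and less RNA per cell cannot be told apart in bulk tissue, here or in any result that follows.

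The 6 miRNAs, called neuronal here only as a name for the set, were a minute part of the gut wall miRNAs. Together they held 26099 counts, or 0.0155% of all counts, and miR-9-5p alone held 55.2% of these. miR-9-5p averaged 92.2 ± 49.5 CPM (SD, n = 60), rank 129 of the 603 miRNAs with any count, and was present in every library. miR-132 followed with 45.3 ± 27.6 CPM, and miR-138 with 34.9 ± 69.2 CPM. These 3 also had the highest counts of the 6.

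The other 3 were near the limit of detection. miR-212 averaged 4.05 ± 4.46 CPM, miR-129-3p 3.65 ± 3.05 CPM and miR-124 3.18 ± 2.05 CPM (SD, n = 60). miR-124 had only 524 counts over all 60 libraries and ranked 282. It was at 0 counts in 3 libraries, all from letter I (duodenum, cecum and descending colon) and all among the 13. A count of 0 allowed up to 2.21, 1.19 and 2.86 CPM there (3 counts of each library), and such limits cover counting error only. Of the miRNAs that define neurons, miR-9-5p was thus clearly present and miR-124 was detected at a low level.

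The opposite arms of 2 hairpins gave a further readout. The miR-9 hairpin was read almost wholly from its 5p arm, with 14416 counts against 218 counts of miR-9-3p, and the 5p arm was the higher one in all 60 libraries. The miR-129 hairpins were read from both arms, with 521 counts of miR-129-3p against 685 counts of miR-129-5p. Here the 3p arm was higher in 20 libraries, the 5p arm in 36, and 4 were equal.

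**Figure D1:**
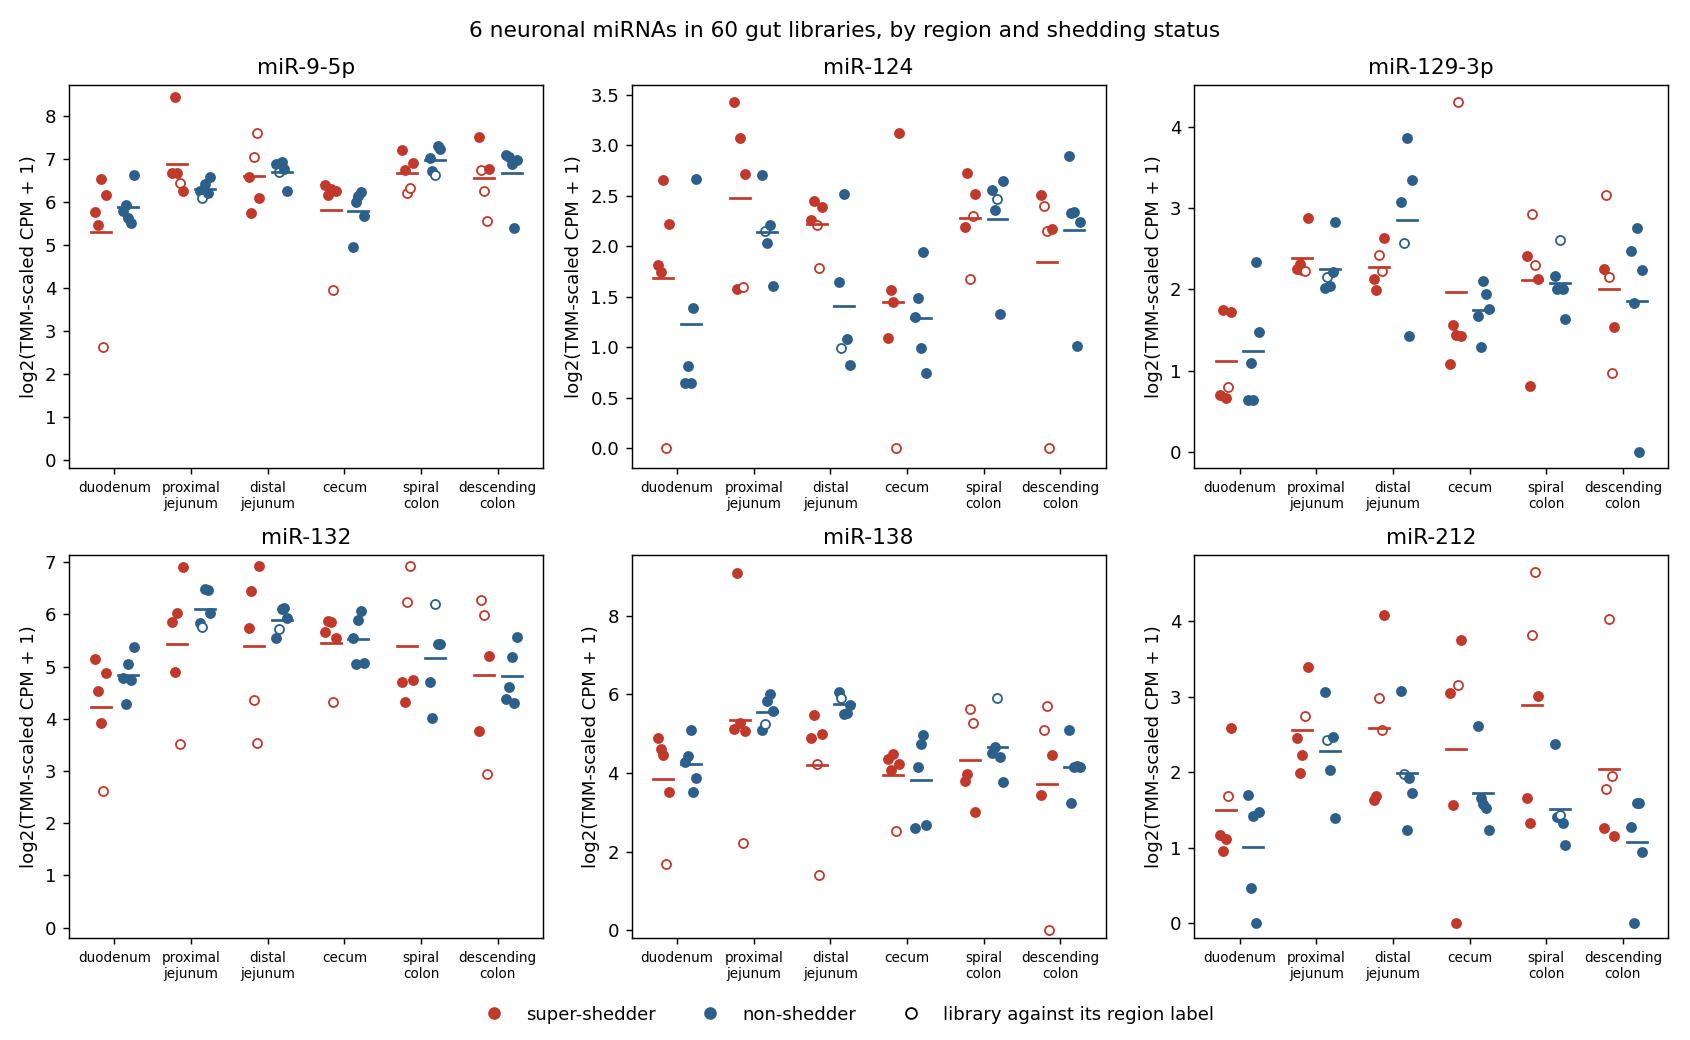
Level of each of the 6 miRNAs as log2(TMM-scaled CPM + 1) in every library, by gut region (x axis) and status, with 5 super-shedder libraries (red, left) and 5 non-shedder libraries (blue, right) in each region. Lines are group means and open points are the 13 libraries against their region label; miR-138 has 1 point far above all others, at 546 CPM in the proximal jejunum of super-shedder G.

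Along the gut the 6 miRNAs did not share 1 order of regions, but the duodenum was at or near the bottom for all of them. miR-9-5p was lowest in the duodenum (56.4 ± 25.9 CPM) and the cecum (60.3 ± 22.4 CPM). Above a gap it stood at 106 ± 39.6 CPM in the distal jejunum, 106 ± 42.4 in the descending colon, 109 ± 82.6 in the proximal jejunum and 115 ± 28.7 in the spiral colon (SD, n = 10 each). The step from the cecum to the distal jejunum was the only 1 of the 30 steps between neighbours in these orders, 5 for each miRNA, that exceeded the larger SD of its pair.

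miR-124 ran in nearly the same order, with 2.03 ± 2.14 CPM in the cecum and 2.26 ± 1.95 in the duodenum, then 2.83 ± 1.53 in the distal jejunum, 3.51 ± 1.81 in the descending colon, 4.03 ± 1.31 in the spiral colon and 4.44 ± 2.59 in the proximal jejunum. miR-129-3p was lowest in the duodenum at 1.46 ± 1.15 CPM and highest in the distal jejunum at 5.62 ± 3.52 CPM. The other 4 regions lay between 3.45 and 4.08 CPM for miR-129-3p. The cecum mean of 3.73 ± 5.29 CPM among them rests on the library of super-shedder I, which is among the 13 and held 18.7 CPM, against at most 3.30 CPM in the other 9 cecum libraries. Without it the cecum mean was 2.07 ± 0.687 CPM (n = 9).

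miR-132 averaged 24.7 ± 10.3 CPM in the duodenum, 33.8 ± 22.4 in the descending colon, 46.1 ± 33.3 in the spiral colon, 46.3 ± 14.5 in the cecum, 58.3 ± 31.4 in the distal jejunum and 62.6 ± 30.6 in the proximal jejunum. Its partner miR-212 was also lowest in the duodenum, at 1.67 ± 1.39 CPM, and then in the descending colon, at 2.98 ± 4.45 CPM. The descending colon mean includes 15.4 CPM in the library of super-shedder H, which is among the 13. The order of these regions turned without the 13 libraries, with 1.29 ± 0.694 CPM (n = 7) in the descending colon and 1.61 ± 1.46 CPM (n = 9) in the duodenum. With all libraries its mean was highest in the spiral colon, at 5.81 ± 7.46 CPM, where the super-shedder libraries of letters I and H, both among the 13, held 24.1 and 13.2 CPM. Without the 13 libraries miR-212 in the spiral colon was 2.73 ± 2.18 CPM (n = 7). miR-138 averaged 16.3 ± 8.82 CPM in the cecum, 18.3 ± 9.29 in the duodenum, 20.7 ± 14.7 in the descending colon, 25.9 ± 17.0 in the spiral colon, 38.9 ± 19.5 in the distal jejunum and 89.1 ± 161 in the proximal jejunum. Its proximal jejunum mean rests on 1 library, and the median there was 37.4 CPM.

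Whether a miRNA differed between any regions was tested by edgeR's quasi-likelihood F test over all 60 libraries, with Benjamini-Hochberg adjustment over the 288 miRNAs that passed the filter on low counts and a threshold of 0.05. All 6 miRNAs passed the filter. miR-138 (adjusted p = 0.00253) and miR-9-5p (adjusted p = 0.0167) varied between regions, 2 of 6, beside 21.9% of all miRNAs tested. miR-129-3p (adjusted p = 0.0523) and miR-132 (0.0563) missed the threshold narrowly in the same edgeR test, and miR-124 and miR-212 (0.156 each) missed it by more. With the letter as a replicate block 3 passed by edgeR, since miR-132 joined them at an adjusted p of 0.0395. Without the 13 libraries 4 of 6 varied between regions, with edgeR adjusted p of 2.10e-06 for miR-132, 3.60e-06 for miR-138, 4.82e-04 for miR-9-5p and 0.00280 for miR-129-3p. In that run 309 miRNAs were tested, and an unadjusted p of 0.0269 (miR-212) became an adjusted p of only 0.0504 by edgeR. A larger part of all miRNAs thus passed there than the 21.9% with all libraries. The rise from 2 to 4 therefore cannot be read as particular to these miRNAs. The call of miR-138 was lost without the proximal jejunum library of super-shedder G alone, at an adjusted p of 0.120 by edgeR, whereas miR-132, miR-129-3p and miR-9-5p were each past the threshold there.

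Among neighbouring regions the step from the duodenum to the proximal jejunum gave the most calls among the 6 neuronal miRNAs, though not over all miRNAs, where more were called in the cecum against the distal jejunum. There the fitted change was positive for all 6 neuronal miRNAs, and 3 of 6 were higher in the proximal jejunum at the threshold, namely miR-132, miR-138 and miR-129-3p, beside 6.60% of all miRNAs tested in either direction and 4.86% that were higher. The median log2 change of the 6 was 1.41, beside 0.02 over all 288 miRNAs. Of the 3 called, miR-132 and miR-138 had Pearson r of 0.66 and 0.75 with the summed leukocyte markers over the 60 libraries. Their r with miR-9-5p was 0.18 and 0.39. Whether the step is one of neurons was not tested.

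miR-132 had a lowest, median and highest level of 10.4, 60.4 and 119 CPM in the 10 proximal jejunum libraries, against 5.15, 26.1 and 40.2 CPM in the 10 duodenum libraries. The ranges overlapped, but the proximal jejunum was the higher of the pair in 10 of 10 letters. The log2 fold change was 1.34 ± 0.39 (SE; adjusted p = 0.0227, edgeR). With the replicate block it was 1.30 ± 0.38, and without the 13 libraries it was 1.39 ± 0.26 (adjusted p = 1.41e-04 by edgeR). Leaving out the 6 libraries of 1 letter took the edgeR call away for A, B, C, D, H or J, with adjusted p between 0.0568 and 0.0930 and the log2 change between 1.16 and 1.38.

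miR-138 had 3.69, 37.4 and 546 CPM as lowest, median and highest in the proximal jejunum, against 2.21, 19.6 and 33.2 CPM in the duodenum. It too was higher in the proximal jejunum in 10 of 10 letters. The log2 fold change was 2.09 ± 0.55 (SE; adjusted p = 0.0101, edgeR), the largest of the 6. Without the single proximal jejunum library of super-shedder G it dropped to 0.92 ± 0.46 and missed the threshold (adjusted p = 0.287, edgeR). Leaving out all libraries of letter G gave 1.004 ± 0.49 (adjusted p = 0.255, edgeR), and leaving out letter D also ended the call by a small margin (1.92 ± 0.59, adjusted p = 0.0506, edgeR).

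miR-129-3p had 3.06, 3.69 and 6.36 CPM as lowest, median and highest in the proximal jejunum, against 0.561, 0.935 and 4.04 CPM in the duodenum. Only the highest duodenum library, that of non-shedder D with 5 counts, reached into the proximal jejunum range, and 9 of 10 letters were higher in the proximal jejunum. The log2 fold change was 1.47 ± 0.48 (SE; adjusted p = 0.0486, edgeR). This call was at the edge of the threshold, since it was lost with the replicate block (adjusted p = 0.0648, edgeR) and without letter A, B, C, E, F, H or J (adjusted p between 0.0889 and 0.137, edgeR). It also missed without the library of letter G named above (adjusted p = 0.0571, edgeR). Without the 13 libraries it held at 1.46 ± 0.43 (adjusted p = 0.0179, edgeR).

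The remaining 3 did not pass with all libraries in edgeR. By edgeR miR-212 stood at 1.50 ± 0.57 on the log2 scale (adjusted p = 0.0967) and miR-124 at 0.95 ± 0.45 (adjusted p = 0.212), with the proximal jejunum higher in 9 and 8 of 10 letters. miR-9-5p had 66.5, 84.2 and 342 CPM as lowest, median and highest in the proximal jejunum, against 5.15, 53.3 and 97.0 CPM in the duodenum. Its log2 fold change was 0.90 ± 0.31 (adjusted p = 0.0697, edgeR), with 9 of 10 letters higher. With DESeq2 miR-9-5p passed at 0.91 ± 0.30 (adjusted p = 0.0327). Without the 13 libraries miR-9-5p passed at 0.83 ± 0.24 (adjusted p = 0.0164, edgeR), and without the proximal jejunum library of letter G it was 0.56 ± 0.29 (adjusted p = 0.292, edgeR).

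**Figure D2:**
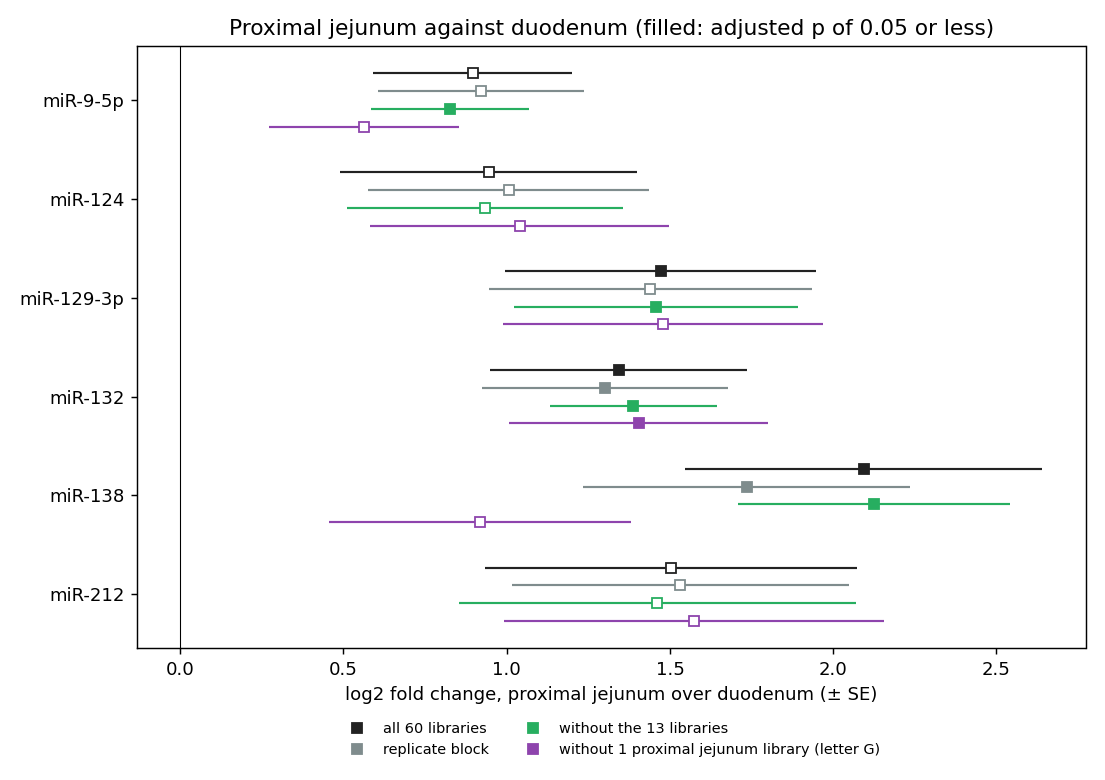
Log2 fold change of the 6 miRNAs, proximal jejunum over duodenum, with its SE, fitted on all 60 libraries, with the letter as a replicate block, without the 13 libraries against their region label, and without the proximal jejunum library of super-shedder G. Filled squares have an edgeR adjusted p of 0.05 or less; every square lies right of 0, and miR-138 moves most when the library of letter G is left out, from 2.09 to 0.92.

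No marker miRNA of other cells passed the threshold between the same regions. The summed level of 7 leukocyte miRNAs was 10574 ± 4904 CPM in the proximal jejunum, with a range of 1461 to 21157 CPM, against 7445 ± 2763 CPM in the duodenum, with a range of 3304 to 11196 CPM. By edgeR 6 of the 7 were higher in the proximal jejunum in value and 0 of 7 passed the threshold, with log2 changes from -0.21 to 1.003. The 9 epithelial miRNAs were all lower in value (log2 changes from -1.60 to -0.02, 0 of 9 past the threshold) and the 5 muscle miRNAs all higher in value (from 0.28 to 0.73, 0 of 5 past the threshold). The 3 red blood cell miRNAs, the 2 endothelial miRNAs and the liver miRNA miR-122 were lower in value, and none of them passed. The part of these cells in the change of the neuronal miRNAs was not tested.

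The other neural and glial miRNAs did not show the same step as a group. Of 21 such miRNAs, 19 were in the table and 10 passed the low-count filter. In the proximal jejunum against the duodenum 1 of the 10 was lower and none was higher at the threshold, beside 6.60% of all miRNAs. The 10 had a median log2 change of -0.08, beside 0.02 over all miRNAs. The lower one was miR-153, a brain miRNA that targets synuclein messenger RNA in human cells, at -2.27 ± 0.49 (adjusted p = 9.88e-04, edgeR).

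Between the other neighbouring regions 0 of 6 neuronal miRNAs passed the threshold. From the proximal to the distal jejunum edgeR called 0.00% of all miRNAs, and of the 6 only miR-138 had an unadjusted p under 0.05, with -1.12 ± 0.53 (adjusted p = 0.998, edgeR). That change was 0.080 without the proximal jejunum library of letter G. DESeq2 and the replicate block also called 0 of 6 there.

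In the cecum against the distal jejunum all 6 had a negative log2 change, and edgeR called none of them, beside 8.68% of all miRNAs. The median of the 6 was -0.49, beside -0.01 over all miRNAs. miR-9-5p had 14.3, 69.4 and 83.0 CPM as lowest, median and highest in the cecum, against 51.9, 104 and 194 CPM in the distal jejunum. The ranges overlapped, and the cecum was the higher of the pair in 2 of 10 letters. Its log2 change of -0.81 ± 0.30 missed with edgeR (adjusted p = 0.0747) and passed with the replicate block (adjusted p = 0.0333) and with DESeq2 (adjusted p = 0.0306). miR-138 stood at -1.14 ± 0.53 (adjusted p = 0.155, edgeR), and these 2 were the only ones with an unadjusted p under 0.05. Without the 13 libraries miR-129-3p (-1.51 ± 0.40, adjusted p = 0.00463) and miR-138 (-1.32 ± 0.42, adjusted p = 0.0190) were lower in the cecum by edgeR, and miR-9-5p was at -0.47 ± 0.25 (adjusted p = 0.166). The 8.68% belongs to the run with all libraries and is no background for these 2 calls. The leukocyte markers moved with this comparison, since all 7 were lower in value in the cecum and 1 passed the threshold. Their sum was 5073 ± 2026 CPM in the cecum and 10400.4 ± 4977 CPM in the distal jejunum, and their part in the change was not tested.

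In the spiral colon against the cecum miR-9-5p (0.93 ± 0.30, adjusted p = 0.387) and miR-124 (1.004 ± 0.43, adjusted p = 0.466) had an unadjusted p under 0.05, and edgeR called 0 of 6, beside 0.347% of all miRNAs. miR-9-5p was the higher in the spiral colon in 9 of 10 letters and miR-124 in 8 of 10. DESeq2 and the replicate block called 0 of 6 as well, and without the 13 libraries miR-9-5p passed at 0.99 ± 0.25 (adjusted p = 0.0203, edgeR), with 7 of 7 letters higher. The 0.347% does not cover that run. In the descending against the spiral colon edgeR called 0.00% of all miRNAs, none of the 6 had an unadjusted p under 0.05, and DESeq2 and the replicate block called 0 of 6.

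Over the whole large intestine against the whole small intestine 1 of 6 neuronal miRNAs passed, beside 27.1% of all miRNAs in either direction and 15.3% that were lower. miR-138 was lower in the large intestine by -0.86 ± 0.31 on the log2 scale (SE; adjusted p = 0.0302, edgeR), with 2 of 10 letters higher. The call was lost with the replicate block (-0.63 ± 0.29, adjusted p = 0.0873, edgeR), without the proximal jejunum library of letter G (-0.51 ± 0.26, adjusted p = 0.143, edgeR) and without letter B, E, F or G. Without the 13 libraries miR-138 was lower by -1.36 ± 0.26 (adjusted p = 3.37e-05) and miR-132 by -0.66 ± 0.16 (adjusted p = 6.20e-04) in the large intestine by edgeR. The 27.1% and 15.3% belong to the run with all libraries and are no background for these 2 calls. With all libraries miR-132 was at -0.11 ± 0.22 (adjusted p = 0.748, edgeR), and the other 4 lay between 0.06 and 0.14. Of the 7 leukocyte markers, 3 were lower in the large intestine at the threshold, and all 7 were lower in value (log2 changes from -1.05 to -0.28). Of the 5 muscle markers 1 was higher, and of the 9 epithelial markers 1 was higher and 1 lower. The part of these cells in the lower miR-138 was not tested.

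Of the other neural and glial miRNAs, 3 of the 10 tested passed in the large against the small intestine, beside 27.1% of all miRNAs. miR-487b, from the imprinted DLK1-DIO3 cluster of miRNAs, was higher in the large intestine by 0.79 ± 0.17 (adjusted p = 4.23e-04), while miR-383 (-1.45 ± 0.45, adjusted p = 0.0137) and miR-184 (-0.60 ± 0.21, adjusted p = 0.0274) were lower, all by edgeR. The call of miR-383 was lost with the replicate block (adjusted p = 0.0531, edgeR) and without the 13 libraries (-0.89, adjusted p = 0.191, edgeR). miR-326 missed with all libraries at -0.33 ± 0.14 (adjusted p = 0.0664, edgeR), and passed with the replicate block (adjusted p = 0.0351) and without the 13 (adjusted p = 0.0440). Without the 13 miR-7 passed as well, at -0.44 (adjusted p = 0.0228, edgeR). The 27.1% does not cover the run without the 13. The median over the 10 was 0.04, beside -0.007 over all miRNAs.

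The 6 miRNAs did not vary as 1 set over the libraries. Pearson r of log2(CPM + 1) over the 60 libraries ran from -0.05 to 0.65 over the 15 pairs. These are descriptions, since the libraries share animals, regions and scaling. The highest pair was miR-132 with miR-138 (r = 0.65, and 0.36 without the 13 libraries). The second was miR-9-5p with miR-124, both defining neuronal miRNAs (r = 0.57, and 0.42 without the 13). miR-132 and miR-212, from 1 transcript, had r = 0.30, or 0.44 without the 13.

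**Figure D3:**
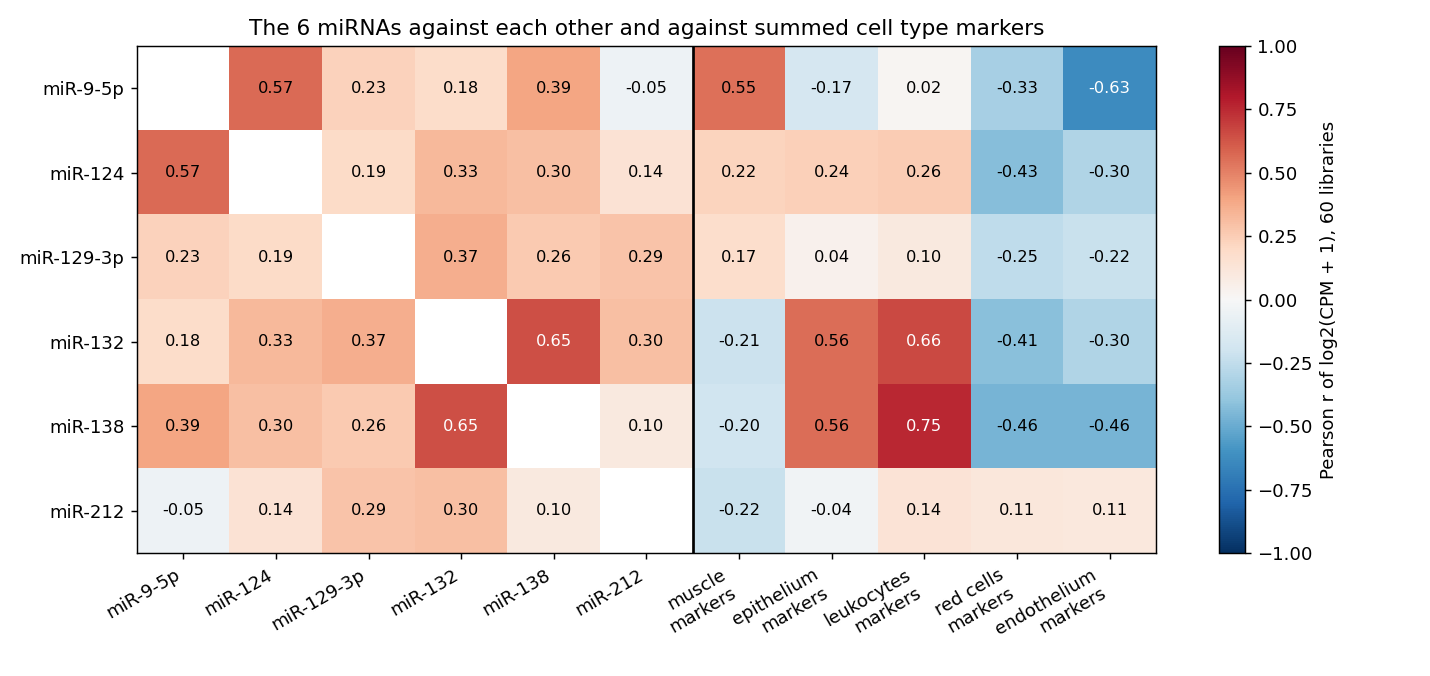
Pearson r of log2(CPM + 1) over 60 libraries for each pair of the 6 miRNAs (left block) and for each of them with the summed level of cell type marker miRNAs (right block). Red is positive and blue negative; miR-138 and miR-132 stand at 0.75 and 0.66 with the leukocyte markers, miR-9-5p at 0.02 with leukocyte and 0.55 with muscle markers.

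Set against the marker lists, the 6 fell apart. miR-9-5p had r = 0.55 with the summed muscle miRNAs (miR-143, miR-145, miR-1, miR-133a and miR-133b), 0.02 with the leukocyte sum, -0.17 with the epithelial sum and -0.63 with the endothelial sum. These values were 0.50, -0.10, -0.42 and -0.60 without the 13 libraries. miR-138 had r = 0.75 with the leukocyte sum (0.64 without the 13 libraries), 0.56 with the epithelial sum (0.17 without the 13) and -0.20 with the muscle sum (-0.26 without the 13). miR-132 resembled miR-138, with r = 0.66 for leukocytes (0.50 without the 13), 0.56 for epithelium (0.40 without the 13) and -0.21 for muscle (-0.28 without the 13). In these libraries miR-132 and miR-138 thus varied more closely with the leukocyte markers than with miR-9-5p (r = 0.18 and 0.39, or -0.14 and 0.34 without the 13). Single epithelial markers went different ways without the 13. There miR-138 had r = 0.21 with miR-192, -0.60 with miR-200b and -0.42 with miR-375. For miR-132 these values were 0.50, -0.08 and -0.40. For miR-124, miR-129-3p and miR-212 r with the leukocyte and the muscle sum lay between -0.22 and 0.26, and the low counts of these 3 limit any correlation.

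The miRNAs most like each member were looked up among 221 others with a mean of at least 10 CPM. For miR-9-5p they were miR-181c (r = 0.68), the muscle miRNA miR-133a (0.57) and miR-10a (0.56). For miR-138 they were miR-425-5p (0.87), the leukocyte miRNA miR-142-3p (0.83) and miR-363 (0.79), which stayed at 0.83, 0.76 and 0.80 without the 13 libraries. miR-132 was most like miR-15b (0.71), miR-1842 (0.70) and miR-1388-5p (0.67), and without the 13 these stood at 0.54, 0.51 and 0.55. For miR-9-5p the values without the 13 were 0.56, 0.54 and 0.49. Likeness was weaker for the rare ones, with miR-212 most like miR-1271 (0.60), miR-2285k (0.57) and miR-199a-5p (0.55). miR-129-3p was most like miR-455-5p (0.53), miR-181b (0.45) and miR-181a (0.40), and miR-124 most like miR-1388-5p (0.50), miR-7 (0.38) and miR-2890 (0.37).

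**Figure D4:**
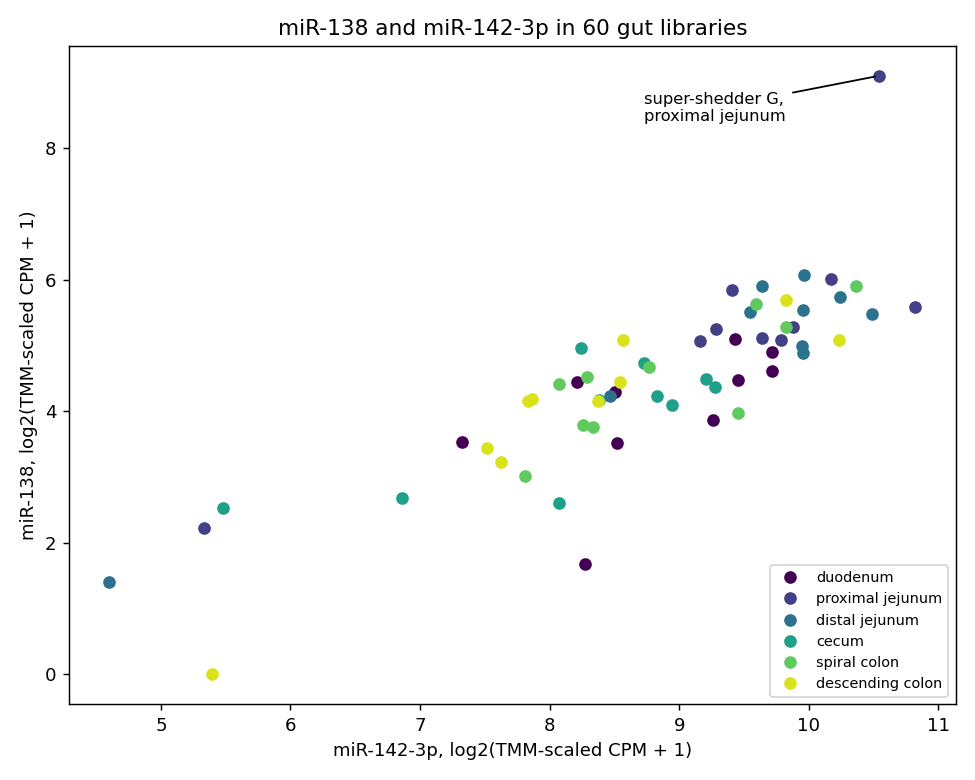
miR-138 against miR-142-3p, a leukocyte miRNA, both as log2(TMM-scaled CPM + 1), in 60 libraries coloured by gut region (r = 0.83). The proximal jejunum library of super-shedder G lies above the rest of the libraries at a miR-142-3p level that others share.

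The proximal jejunum library of super-shedder G stood apart in 2 of the 6 miRNAs. It had 551 counts of miR-138, or 546 CPM, against at most 63.4 CPM in the region's other 9 libraries and at most 66.0 CPM in the rest of the series. miR-9-5p was at 342 CPM in the same library, against 66.5 to 101 CPM in the region's other 9 and at most 194 CPM elsewhere. Its opposite arm miR-9-3p was high there as well, with 11.9 CPM from 12 counts, against at most 4.50 CPM in the other libraries. miR-124 was not, at 1.98 CPM from 2 counts, the lowest level of the region, and miR-132 (28.8 CPM) and miR-212 (2.97 CPM) lay inside or below the range of their group. The leukocyte markers of this library did not stand out by the same measure. Its miR-142-3p level was 1487 CPM, against 39.2 to 1809 CPM in the region's other 9, and miR-146a was the only 1 of the 7 above the other 9 (3562 CPM, against 655 to 3135 CPM). Other miRNAs outside the 6 also stood out in this library. miR-129-5p was at 15.9 CPM from 16 counts, against at most 9.25 CPM in the region's other 9 and 29.4 CPM elsewhere. The summed endothelial markers, at 3846 CPM, were the lowest of all 60 libraries. The summed red blood cell markers, at 1090 CPM, were the highest of the region. The library's depth of 659627 counts was the lowest among super-shedder libraries.

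Super-shedders and non-shedders were first compared over counts summed per animal, 5 against 5, in 361 miRNAs that passed the filter. Among the 6 neuronal miRNAs 0 passed, beside 0.277% of all miRNAs (1 of 361). 1 of the 6, miR-212, had an unadjusted p under 0.05. DESeq2 called 1 of 6, and a limma-voom fit in which letters were a random replicate block called 0 of 6. The log2 changes of the other 5 lay between -0.05 and 0.13 by edgeR.

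miR-212, the rarer partner of miR-132, averaged 3.11, 2.01, 6.73, 7.95 and 8.57 CPM over the 6 regions in super-shedders F, G, H, I and J, against 4.62, 1.92, 1.97, 2.12 and 1.51 CPM in non-shedders A, B, C, D and E. Super-shedders H, I and J were above all non-shedders, while G and F lay within their range. The mean was 5.68 ± 2.95 CPM in super-shedders and 2.43 ± 1.25 CPM in non-shedders (SD, n = 5 each; exact two-sided permutation test, p = 0.0635). The log2 fold change on summed counts was 1.29 ± 0.36 (SE; adjusted p = 0.230, edgeR), and DESeq2 gave 1.32 ± 0.39 with an adjusted p of 0.0351. In the limma-voom fit it was 0.82 ± 0.45 (adjusted p = 0.479). Without the 13 libraries, 9 of which belong to letters H and I, it was 0.71 ± 0.40 (adjusted p = 0.638, edgeR). That run held no library of I and only the duodenum, proximal jejunum and cecum of H. Letters B, C and G also lacked some regions, so its sums differ between animals in the regions they cover. Leaving out each letter in turn gave log2 changes from 1.08 to 1.49 and adjusted p from 0.0899 to 0.465 by edgeR.

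miR-132 did not show that difference, with means of 45.3 ± 12.6 CPM in super-shedders and 45.4 ± 10.97 CPM in non-shedders (SD, n = 5 each; exact permutation p = 0.992). The share of miR-212 among the counts of the pair was 7.35%, 3.89%, 12.7%, 23.3% and 10.7% in super-shedders F, G, H, I and J. In non-shedders A, B, C, D and E it was 9.38%, 5.85%, 3.39%, 3.98% and 2.98%. The exact (Clopper-Pearson) 95% interval was 19.2 to 27.8% in I, 2.45 to 5.83% in G and 7.27 to 11.9% in non-shedder A. These intervals cover counting error only, since reads without molecular identifiers are not independent molecules, and all 6 libraries of I are among the 13. The mean share was 11.6 ± 7.35% in super-shedders and 5.12 ± 2.62% in non-shedders (SD, n = 5 each; exact two-sided permutation test, p = 0.0794), and the groups overlapped. In the 18 libraries with at least 10 counts of both, the median ratio of miR-132 to miR-212 counts was 5.63, with a range of 1.82 to 29.1.

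**Figure D5:**
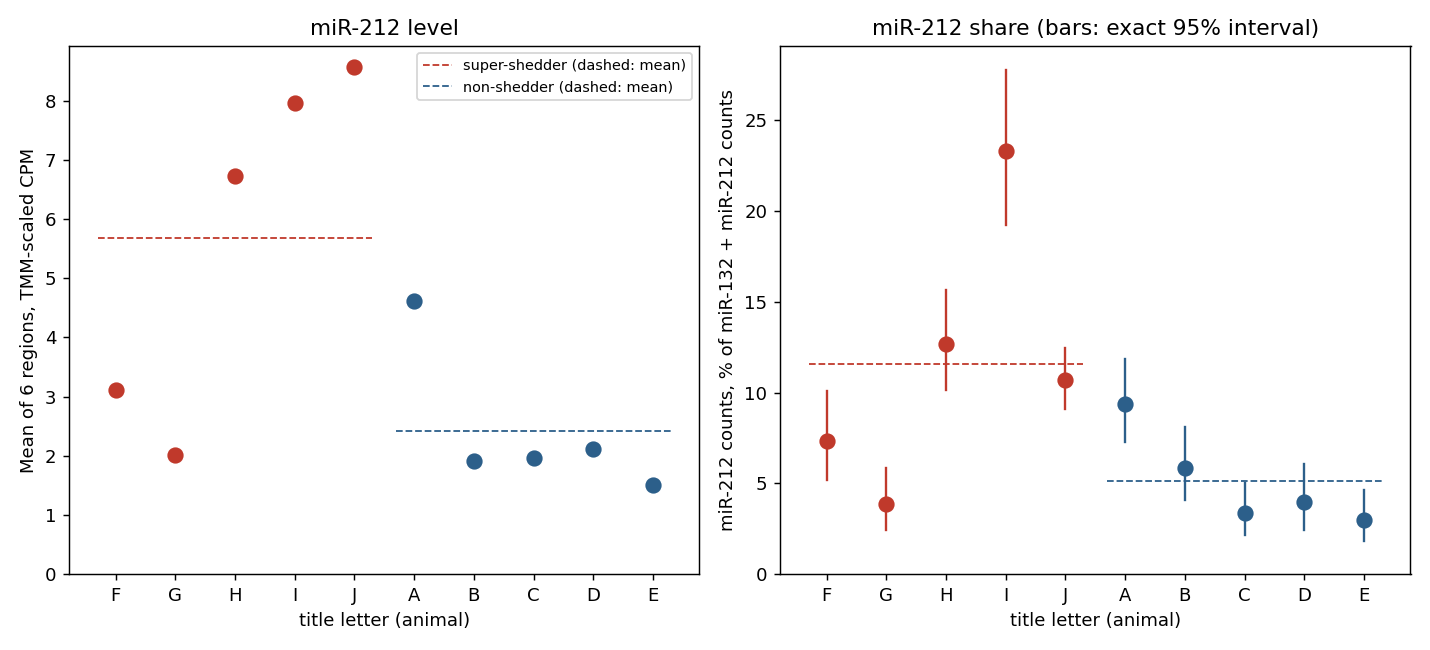
miR-212 per animal, with super-shedders F to J (red) left of non-shedders A to E (blue): its mean level over 6 regions (left, TMM-scaled CPM) and its counts as a share of miR-132 plus miR-212 counts (right, with exact 95% intervals). Dashed lines are group means; H, I and J are above every non-shedder in both panels, and F and G are not.

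The other 4 animal means differed by less than their spread. miR-9-5p averaged 95.2 ± 19.6 CPM in super-shedders and 89.2 ± 5.60 CPM in non-shedders, and miR-124 3.58 ± 1.33 CPM in super-shedders and 2.78 ± 0.579 CPM in non-shedders (SD, n = 5 each). miR-129-3p averaged 3.65 ± 0.940 CPM in super-shedders and 3.65 ± 1.10 CPM in non-shedders. miR-138 averaged 39.3 ± 42.1 CPM in super-shedders and 30.4 ± 5.50 CPM in non-shedders, with 113 CPM in G and 8.35 CPM in I. The exact permutation p of these 4 was between 0.262 and 1. Of the other neural and glial miRNAs 16 were tested in the animal sums, and edgeR called 0, beside 0.277% of all miRNAs. None of the 16 had an unadjusted p under 0.05.

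Within single regions, 5 libraries against 5, only miR-9-5p, miR-132 and miR-138 passed the low-count filter, and in the spiral colon also miR-124. By edgeR 0 of these passed the threshold in any region and none had an unadjusted p under 0.05. DESeq2 called 0 in any region, but it gave no p for miR-138 in the proximal jejunum. For miR-9-5p in that region the unadjusted p of DESeq2 was 0.0285 (adjusted p = 0.289). A single edgeR fit of all 60 libraries tested all 6 miRNAs in each region and also called 0. Of its 36 changes only those of miR-212 in the spiral and the descending colon had an unadjusted p under 0.05. Both were higher in super-shedders in value, at 2.15 ± 0.73 in the spiral colon (adjusted p = 0.354, edgeR) and 1.76 ± 0.77 in the descending colon (adjusted p = 0.583, edgeR). They were 0.77 ± 0.84 in the spiral colon and 0.06 ± 0.97 in the descending colon without the 13 libraries. The share of all miRNAs called by edgeR was 0.418% in the duodenum, 0.00% in the proximal jejunum, 0.412% in the distal jejunum, 0.00% in the cecum, 0.383% in the spiral colon and 0.00% in the descending colon. Over the 6 miRNAs and 6 regions, 1 of 36 pairs of groups did not overlap, beside 1.04% of all such pairs.

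That pair was miR-138 in the distal jejunum. It had 28.6, 43.7, 17.8, 1.63 and 30.7 CPM in super-shedders F, G, H, I and J, against 66.0, 59.0, 44.5, 45.4 and 52.0 CPM in non-shedders A, B, C, D and E. All super-shedder libraries were lower, and those of super-shedder G and non-shedder C were less than 1 CPM apart. The log2 fold change was -1.08 ± 0.57 (SE; adjusted p = 0.505, edgeR), and -0.58 ± 0.34 (adjusted p = 0.561, edgeR) without the libraries of H, I and B, which are among the 13.

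In the proximal jejunum miR-138 had 33.7, 546, 37.9, 3.69 and 32.6 CPM in super-shedders F, G, H, I and J, against 33.0, 36.8, 56.5, 63.4 and 46.8 CPM in non-shedders A, B, C, D and E. The library of G was far above all non-shedders and that of I below them. The log2 fold change of 1.57 ± 1.04 (adjusted p = 0.536, edgeR) turned to -0.87 ± 0.55 (adjusted p = 0.429, edgeR) without G. miR-9-5p in the same region had 99.7, 342, 101, 84.8 and 74.8 CPM in super-shedders F, G, H, I and J, against 75.2, 66.5, 83.6, 72.4 and 93.9 CPM in non-shedders A, B, C, D and E. Its log2 fold change was 0.89 ± 0.44 (adjusted p = 0.468, edgeR), and 0.15 ± 0.19 (adjusted p = 0.709) without G.

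Whether the shedding difference varied between regions was tested in 1 model of the 60 libraries. edgeR called 0 of 6 neuronal miRNAs, beside 0.347% of all miRNAs, with 0 of 6 at an unadjusted p under 0.05, and the adjusted p was 0.992 for each. DESeq2 and the replicate block also called 0 of 6.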

How the data were processed

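The deposited table holds whole-number counts per mature miRNA for 60 libraries, made by the authors. The submitters' processing notes name Bowtie and edgeR without role or version. Genome build, annotation and the rule for reads with several matches were not given in the sources used here. Per the labels RNA was extracted with the mirVana kit and libraries were made with the TruSeq small RNA kit. Groups follow the tissue labels, although the extraction protocol speaks of rectal tissue throughout.

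In R 4.3.3, counts were filtered with filterByExpr (minimum count 10), scaled by TMM and tested in edgeR 4.0.16 by its quasi-likelihood F test (two-sided), with p adjusted by Benjamini-Hochberg and a threshold of 0.05. Region tests and the interaction used 1 model of 12 group means. Shedding was tested in counts summed per letter and in each region. The SE of a log2 change is its size over the square root of F, and is not given for changes near 0. Correlations used log2(CPM + 1). Alternatives were RLE, total counts, total counts without miR-143, other low-count filters, DESeq2 1.42.0, limma 3.58.1, leaving out each letter, a replicate block, and, chosen after seeing the data, leaving out the 13 libraries or 1 library. The code was tested on simulated data.

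Letters pair libraries because, per the labels, every animal gave several tissues and a letter keeps 1 status. As a check, deviations from the group means correlated at 0.163 on average over 150 pairs of the same letter and at -0.0258 over other pairs, 95 of the 150 were over 0.1, and 14 of 60 libraries had their best match in their own letter. No replicates were identical (chi-square over its degrees of freedom at least 26.9). All 6 miRNAs are named in every comparison that tested them, with the 3 most similar miRNAs of each and members of the other neural list past the threshold, up to 6. The 6 miRNAs and all lists were chosen with earlier results of these data known. No miRNA sequences are printed.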

Additional observations from a re-analysis of the deposited data

Results flagged for a closer look

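The 6 miRNAs, 6 regions and both statuses formed 72 groups of 5 libraries. In 16 of them 1 library lay far from the other 4 by Dixon's criterion. That criterion picks about 1 in 20 groups by chance where values are normally distributed. It was applied here to CPM without a logarithm, where that rate need not hold. The proximal jejunum of super-shedder G stood high in miR-138 (546 CPM, the other 4 between 3.69 and 37.9 CPM) and in miR-9-5p (342 CPM, the others between 74.8 and 101 CPM). The cecum of super-shedder I, a library among the 13, stood high in miR-129-3p (18.7 CPM from 47 counts, the others at most 1.96 CPM) and low in miR-9-5p (14.3 CPM, the others at least 70.0 CPM). The opposite arm miR-129-5p was at 29.4 CPM in that library, against at most 4.81 CPM in the other cecum libraries.

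The descending colon of super-shedder I, also among the 13, had 0 counts of miR-124, while the other 4 had at least 3.43 CPM. The descending colon of super-shedder H, likewise among the 13, had 15.4 CPM of miR-212, against at most 2.86 CPM in the others. The spiral colon of non-shedder C, the last of the 13 here, had 58.7 CPM of miR-138, against at most 24.4 CPM.

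Non-shedder A stood far above the other 4 non-shedders in miR-212 in 3 regions, at 7.45 CPM (7 counts) in the distal jejunum, 5.10 CPM (7 counts) in the cecum and 4.19 CPM (12 counts) in the spiral colon. Non-shedder E stood high in the duodenum for miR-9-5p (97.0 CPM) and miR-124 (5.32 CPM from 9 counts) and in the proximal jejunum for miR-129-3p (6.10 CPM). Super-shedder J stood high in the cecum for miR-124 (7.70 CPM from 32 counts) and in the proximal jejunum for miR-129-3p (6.36 CPM from 8 counts). Non-shedder D stood low in the descending colon for miR-9-5p, at 40.9 CPM.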

How the results depend on the processing

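None of the 4 changes with a direction that edgeR called reversed under any alternative run, but their calls often did not hold. The counts below are of the 6 only, and the share of all miRNAs called is not given for these runs. That share also changed, and was larger between any regions without the 13. A change in these counts thus cannot be read as particular to the 6. The number of the 6 miRNAs that varied between any regions, 2, was 4 with RLE, with a filter at 5 CPM in 5 libraries, with DESeq2 and without the 13 libraries, 5 without the 13 and with the replicate block, and 1 to 4 without 1 letter. In the large against the small intestine, 1 was called; it was 0 with no low-count filter, with the replicate block, with exact sign flips over letters or without the proximal jejunum library of G, 2 without the 13, 3 without the 13 and with the block, and 0 to 1 without 1 letter. In the proximal jejunum against the duodenum, 3 were called. The number was 1 with no filter and without the library of G, 5 without the 13 and with the block, and 1 to 4 without 1 letter. DESeq2 called miR-9-5p besides these 3.

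In the cecum against the distal jejunum, 0 were called; it was 1 with the CPM filter, DESeq2, the replicate block and without the library of G, 2 without the 13 (with the block 2), and 0 to 2 without 1 letter. In the spiral colon against the cecum, 0 became 1 without the 13 and 2 with the block as well. In the animal sums, 0 became 1 with DESeq2. The miR-138 change from proximal to distal jejunum turned to 0.080 without the library of G, and its shedding change in the proximal jejunum to -0.87, with -0.87 to 1.80 without 1 letter. The ratio of miR-132 to miR-212 was 12.8 when 1 count of each sufficed. Of the 57 changes with a direction that edgeR did not call, 35 turned sign in at least 1 alternative and 10 passed the threshold in at least 1, in 25 of 1135 values. The cause of these shifts was not tested. With the replicate block alone miR-138 was lost in the large against the small intestine and miR-9-5p gained in the cecum against the distal jejunum. The block also took the count between any regions to 3, with miR-132. In the proximal jejunum against the duodenum it took the count to 2, without miR-129-3p, and it changed no other call of the 6. Low counts of miR-124, miR-129-3p and miR-212 kept them out of nearly all tests within single regions.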
